A study of Sus scrofa with 18 samples.

Results

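The guanylate-binding proteins (GBPs) are large GTPases that interferon-gamma induces in many cell types. They coat and break open vacuoles that hold intracellular pathogens and feed into inflammasome activation, and their genes lie in clusters in mammals. The transcription factor IRF1 is made in response to interferon-gamma and acts on GBP promoters. H3K4me3 is a histone mark found at promoters in use, and H3K27ac is found at promoters and enhancers in use. At embryo implantation in the pig, interferons from the conceptus reach the uterus.

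The genes described here are those of RefSeq assembly Sscrofa11.1 on chromosome 4 whose symbol begins with GBP, within 500 kb of GBP1. They were 2 of the 19550 protein-coding genes on placed chromosomes. GBP2 (gene ID 100153137) is annotated at chr4:127387222-127408729 and GBP1 (gene ID 100151938) at chr4:127425699-127442132, with 16969 bases between them. All peaks of a 0.6 Mb window around both genes were taken as well, 164 peaks over 6 lists.

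The marks were profiled by CUT&Tag, in which an antibody directs a transposase to marked chromatin, in myometrium of Yorkshire gilts. GD15M_CM was the circular muscle layer from gilts on day 15 of pregnancy, GD15M_LM was the longitudinal muscle layer from gilts on day 15 of pregnancy, and CD15M_CM was the circular muscle layer from cycling gilts, also on day 15. All 3 were taken from the mesometrial side of the uterus after the endometrium had been cut away, from 2 gilts each. The 18 libraries (6 of them IgG controls) reached these files as 6 peak lists, 1 for each mark and tissue, since the replicates were pooled before peak calling. There is therefore no value per gilt, no spread and no test between tissues, and every difference below compares 2 pooled lists.

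The study cloned a fragment at GBP1 into a luciferase reporter. Its primers are shown because the fragment was chosen from the H3K4me3 peaks of these libraries. They are printed 5′ to 3′ as the study lists them, with no base set in capitals, and were not placed on the genome here.

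GBP1 forward: ggcagtctggagcagaagata

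GBP1 reverse: cttaacactgtaagcaagccct

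Each peak has a fold enrichment, its signal over the local background. The lists differ in size and in scale. For H3K4me3 they held 33599 (GD15M_CM), 31910 (GD15M_LM) and 36331 (CD15M_CM) peaks, with median fold enrichments of 4.86, 5.66 and 4.64. For H3K27ac they held 79877, 57010 and 82037 peaks, with medians of 3.49, 3.79 and 3.53. Fold enrichment was therefore also given as a percentile, the rank of a peak within its own list, where 100 is the strongest peak. A gene's value was the highest percentile of the peaks within 3 kb of either of its ends, or 0 without a peak, because the reference used here gives no strand. Where a gene outside the window is said to have no peak, none lay within 3 kb of its ends. Peaks deeper inside such a gene were not counted.

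Both GBP genes carried H3K4me3 in all 3 tissues, at 1 end only. At GBP1 the peaks near an end lay at its lower-coordinate end, and at GBP2 at its upper-coordinate end, so that the marked ends of the genes faced each other across the gap. This held for H3K27ac as well. Within 3 kb of the other ends of the genes no list had a peak of either mark.

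**Figure D1:**
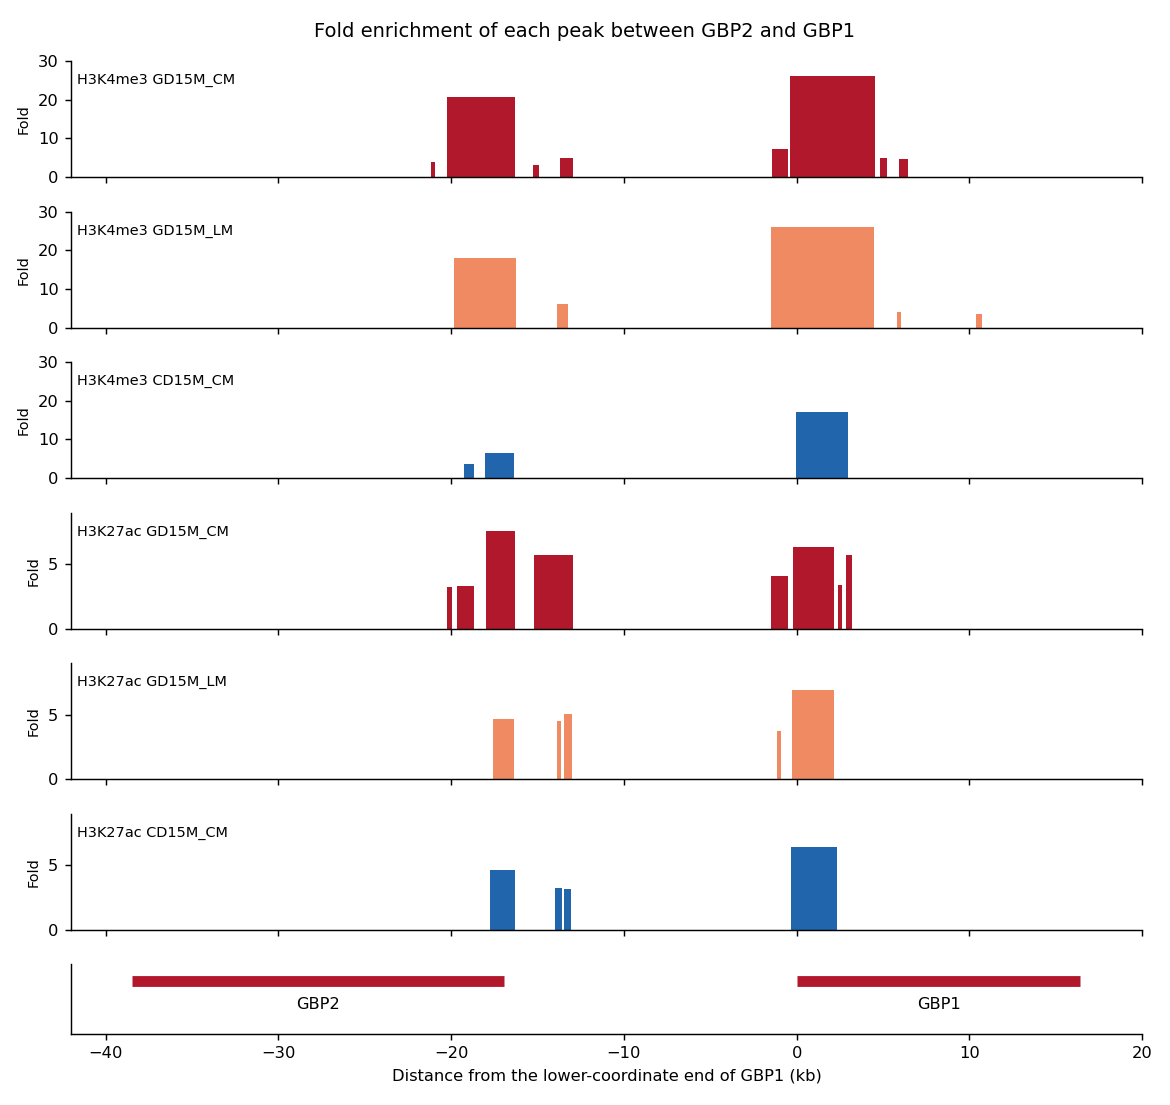
Fold enrichment of each peak (y axis, a ratio) against distance from the lower-coordinate end of GBP1 in kb (x axis), 1 row per peak list, with the genes as red bars below. Each block is 1 peak, drawn to its length and height; the H3K4me3 blocks at both genes are tallest in GD15M_CM and GD15M_LM and shortest in CD15M_CM.

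The strongest H3K4me3 peak at GBP1 had its highest percentile in GD15M_CM. In GD15M_CM it spanned chr4:127425331-127430236, 4906 bases, at 26.2-fold enrichment (percentile 96.8). In GD15M_LM it spanned chr4:127424238-127430201, 5964 bases, at 26.1-fold enrichment (percentile 90.6). In CD15M_CM it spanned chr4:127425635-127428681, 3047 bases, at 17.2-fold enrichment (percentile 77.9). The GD15M_CM peak ran further into the gene than that of CD15M_CM, and ended at about the same position as that of GD15M_LM.

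In GD15M_CM the H3K4me3 at GBP1 was split. A separate peak of 934 bases with a fold enrichment of 7.16 lay just outside the gene, over bases that the single peak of GD15M_LM included. Inside the gene, GD15M_CM had further peaks of 412 and 546 bases and GD15M_LM of 278 and 335 bases, all with a fold enrichment between 3.46 and 4.93. CD15M_CM had no H3K4me3 peak at GBP1 besides its strongest one.

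The strongest H3K4me3 peak at GBP2 showed the same order with wider steps. In GD15M_CM it spanned chr4:127405430-127409416, 3987 bases, at 20.7-fold enrichment (percentile 90.6). In GD15M_LM it spanned chr4:127405886-127409473, 3588 bases, at 17.9-fold enrichment (percentile 76.4). In CD15M_CM it spanned chr4:127407672-127409329, 1658 bases, at 6.61-fold enrichment (percentile 60.3). The outer borders of the 3 peaks lay close together, between 600 and 744 bases beyond the gene's end, and the difference in length lay inside the gene. There CD15M_CM had a second peak of 562 bases with a fold enrichment of 3.71.

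H3K27ac at GBP1 was nearly level across the tissues. The strongest peak had a fold enrichment of 6.32 in GD15M_CM, 6.91 in GD15M_LM and 6.43 in CD15M_CM, with percentiles of 95.3, 93.6 and 96.0. Its length was 2389, 2487 and 2641 bases. GD15M_CM added 1 peak of 971 bases before the gene, where GD15M_LM had 1 of 269, and inside it a peak of 201 bases and another of 382 bases, chr4:127428538-127428919, at 5.68-fold enrichment (percentile 92.1). Neither peak inside the gene had a counterpart in the other lists.

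H3K27ac at GBP2 was highest in GD15M_CM. The strongest peak had a fold enrichment of 7.61 in GD15M_CM and of 4.63 in both other lists. The percentiles were 98.4, 71.2 and 80.9, and the lengths 1706, 1221 and 1478 bases. In GD15M_CM alone, 2 further H3K27ac peaks of 259 and 949 bases lay inside GBP2, both under H3K4me3 of the same tissue.

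A stretch in the gap on the GBP2 side was also marked. H3K27ac covered chr4:127410474-127412772 in GD15M_CM as 1 peak of 2299 bases at 5.70-fold enrichment (percentile 92.2). GD15M_LM had 2 peaks of 215 and 436 bases there, the stronger at percentile 77.6, and CD15M_CM had 2 of 361 and 380 bases, the stronger at percentile 37.8. H3K4me3 was called in the same stretch in GD15M_CM (742 bases, fold enrichment 4.93) and GD15M_LM (639 bases, 6.04) and not in CD15M_CM.

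The overlap of the marks differed between the genes. Over each gene with 3 kb on both sides, H3K27ac covered 57.3% of the H3K4me3 bases at GBP1 in GD15M_CM, 41.9% in GD15M_LM and 78.3% in CD15M_CM. At GBP2 the shares were 70.4%, 34.0% and 62.5%. The share at GBP1 was highest in CD15M_CM, where the H3K4me3 was shortest, whereas at GBP2 it was highest in GD15M_CM.

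**Figure D2:**
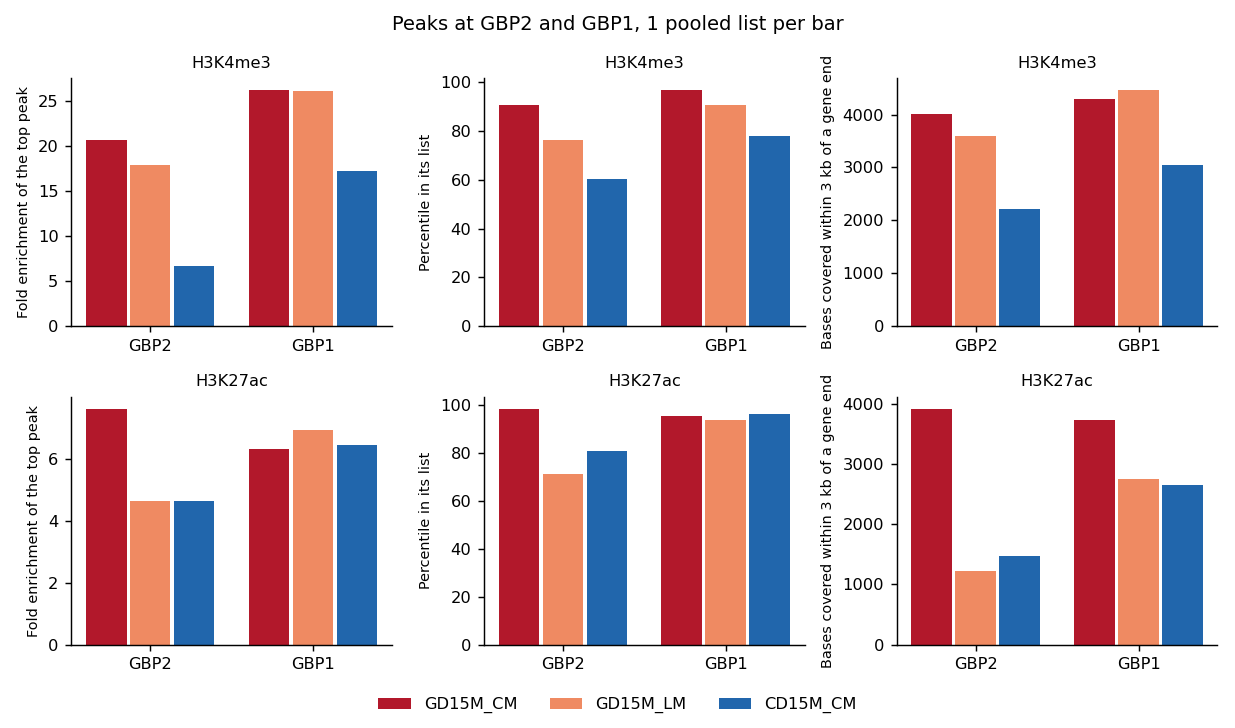
Fold enrichment of the strongest peak (left, a ratio), its percentile in its list (middle) and bases covered by peaks within 3 kb of a gene end (right) at GBP2 and GBP1, for H3K4me3 (top) and H3K27ac (bottom). Each bar is 1 pooled list, so there is no error bar; H3K27ac at GBP1 stays between percentiles 93.6 and 96.0 while H3K4me3 at GBP2 ranges from 60.3 to 90.6.

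The first comparison, GD15M_CM against CD15M_CM, asks what differs with pregnancy in circular muscle. A gene was counted as higher or lower where the percentiles differed by at least 10 points. For H3K4me3 both GBP genes were higher in GD15M_CM, against 12.2% of the 14281 genes with a peak in either list, while 23.4% of those genes were lower. The difference was 18.9 points at GBP1 and 30.4 points at GBP2, beside a median of -2.10 over all genes. A difference as large as that of GBP1 was seen at 3.56% of genes and one as large as that of GBP2 at 0.875%. The ratio of fold enrichments was 1.52 at GBP1 and 3.13 at GBP2. With peaks ranked by −log10 p the differences were 19.7 and 12.6 points. Among peaks of fold enrichment from 5 and −log10 p from 10 they were 41.8 and 67.6 points. Those peaks were ranked anew among themselves, which stretches differences, so these points are on another scale. No share of all genes is given at that limit. GBP1 is a gene the study picked from a comparison of these libraries, so its difference is no independent evidence.

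The peaks near the gene ends were also longer in GD15M_CM. Within 3 kb of a gene end H3K4me3 covered 4303 bases at GBP1 against 3047 in CD15M_CM, a ratio of 1.41, and 4006 bases at GBP2 against 2220, a ratio of 1.80. A ratio of 1.5 or more, a limit chosen after the data had been seen, was reached at 2.53% of genes, GBP2 among them. A ratio as large as that of GBP1 was reached at 2.97%.

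For H3K27ac in this comparison GBP2 was higher in GD15M_CM by 17.5 points and GBP1 differed by -0.74 points. Of the 14466 genes with an H3K27ac peak in either list, 27.5% were higher and 27% lower, so that 1 of 2 GBP genes stands beside a wide background. A difference as large as that of GBP2 was seen at 19.1% of genes. Among peaks of fold enrichment from 5 and −log10 p from 10, GBP2 had an H3K27ac peak in GD15M_CM alone. The peak of CD15M_CM missed only the limit on fold enrichment, at 4.63. The bases covered at GBP2 were 3916 in GD15M_CM and 1478 in CD15M_CM, a ratio of 2.65, and 10.9% of genes reached 1.5. That ratio depends on the edge of the 3 kb. They take in part of the GD15M_CM peak in the gap, from chr4:127410474. The first gap peak of CD15M_CM, from chr4:127411734, began just beyond the edge and added nothing. At GBP1 they were 3723 and 2641, a ratio of 1.41.

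The second comparison, GD15M_CM against GD15M_LM, asks what differs between the muscle layers in pregnancy. It shares the GD15M_CM lists with the first, so the values stand side by side and are not independent. For H3K4me3 the difference was 6.14 points at GBP1 and 14.2 at GBP2. GBP2 was thus counted as higher in GD15M_CM, against 20.7% of 14250 genes, while 19.4% were lower. With peaks ranked by −log10 p the difference at GBP2 was 4.66 points, under the limit. The fold enrichments were close, with a ratio of 1.0 at GBP1 and 1.15 at GBP2. The bases covered had ratios of 0.964 and 1.12, and 5.75% of genes reached 1.5.

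For H3K27ac GBP2 was higher in GD15M_CM than in GD15M_LM by 27.2 points, against 33.3% of 14247 genes, while 23.7% were lower. GBP1 differed by 1.64 points. The bases covered at GBP2 had a ratio of 3.21, and 28.7% of genes reached 1.5. Here too part of the GD15M_CM peak in the gap was counted. The gap peaks of GD15M_LM, from chr4:127411844, lay beyond the 3 kb and were not. At GBP1 that ratio was 1.35. GD15M_LM and CD15M_CM differ in layer and in pregnancy at once, which cannot be told apart, and no call was made between them.

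**Figure D3:**
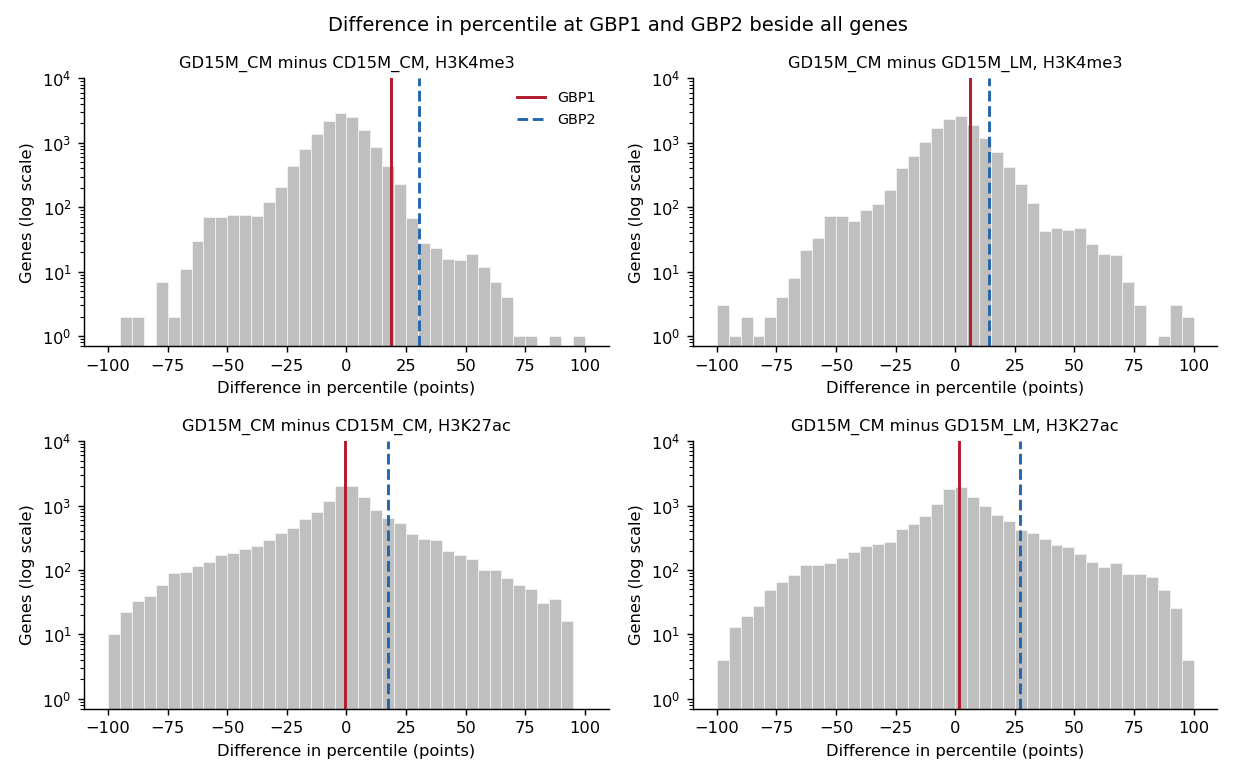
Number of genes (y axis, log scale) by difference in percentile between 2 lists in points (x axis, bins of 5 points), GD15M_CM minus CD15M_CM at left and minus GD15M_LM at right, H3K4me3 on top and H3K27ac below. The lines mark GBP1 (solid) and GBP2 (dashed); GBP2 lies to the right of GBP1 in all 4 panels, farthest into the tail at 30.4 points for H3K4me3 against CD15M_CM.

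For H3K4me3 the window around the genes held 28 (GD15M_CM), 19 (GD15M_LM) and 16 (CD15M_CM) peaks, which covered 35303, 32011 and 23659 bases. It held 43, 28 and 30 H3K27ac peaks, which covered 32089, 19299 and 25170 bases. When only as many peaks were kept from each list as the smallest list of that mark holds, the H3K4me3 counts were 27, 19 and 16 and the H3K27ac counts 29, 28 and 24. The excess of H3K27ac peaks in GD15M_CM was therefore mostly of peaks with weaker p.

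Peaks of the 3 lists that overlapped were joined into sites. Of the 30 H3K4me3 sites of the window, 12 (40%) were marked in all 3 tissues, near the 44.2% of all 42577 sites. Another 9 (30%) were marked in GD15M_CM only, against 10.2% of all sites. Of the 54 H3K27ac sites, 16 (29.6%) were marked in all 3 tissues, near the 31.4% of all 103503 sites. Another 21 (38.9%) were marked in GD15M_CM only, against 21.9% of all sites. From GBP2 to GBP1 with 3 kb on both sides, 3 of 8 H3K4me3 sites and 4 of 8 H3K27ac sites were marked in GD15M_CM only, and none in CD15M_CM only. The H3K4me3 sites marked in GD15M_CM only were short and weak, with percentiles from 12.5 to 51.3. Neighbouring sites are not independent of one another.

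**Figure D4:**
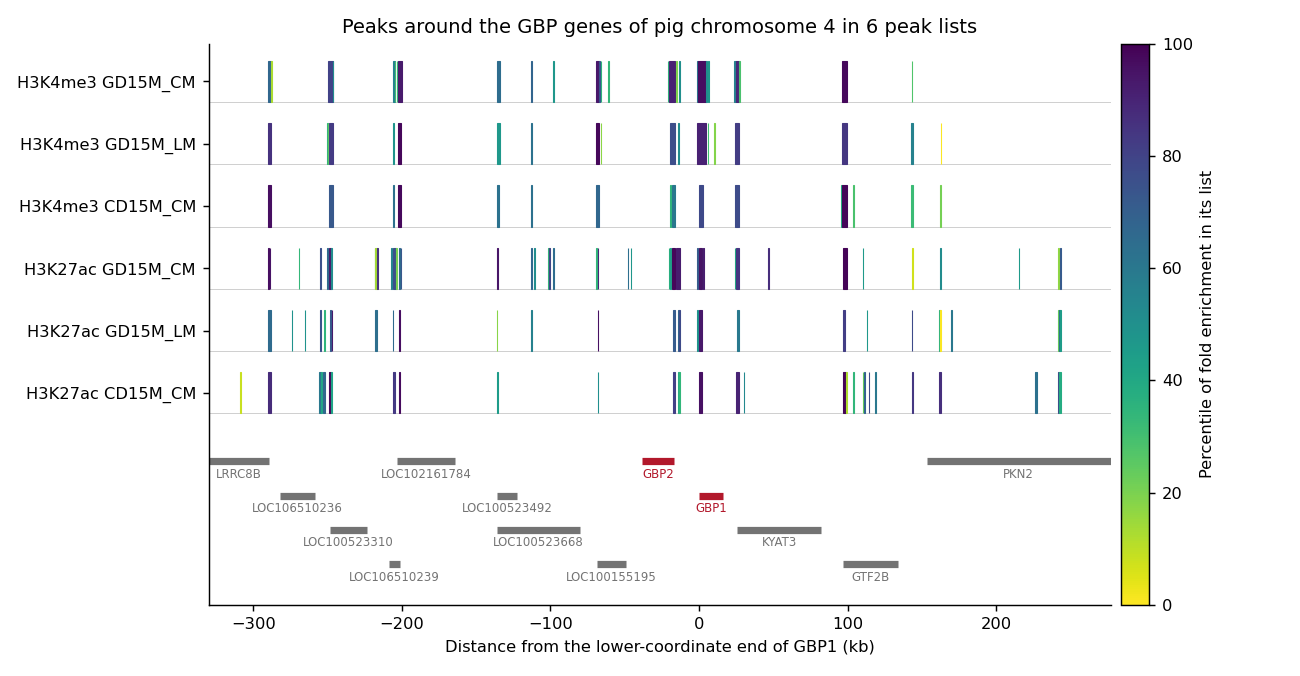
Every peak of the window in the 6 lists against distance from the lower-coordinate end of GBP1 in kb, coloured by the percentile of its fold enrichment, with the RefSeq genes below and the GBP genes in red. Peaks are drawn to scale apart from a thin outline that keeps the shortest visible; GD15M_CM has the most peaks for both marks, 28 for H3K4me3 and 43 for H3K27ac.

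The window holds 13 RefSeq genes. Besides the GBP genes, 9 protein-coding genes had a value. For H3K4me3, 3 of them were higher and 1 lower in GD15M_CM than in CD15M_CM, with a median difference of 2.27 points. Beside them, 12.2% of all genes were higher and 23.4% lower, with a median of -2.10. LOC100155195, the next gene on the GBP2 side, had H3K4me3 percentiles of 93.4 in GD15M_CM, 98.3 in GD15M_LM and 67.0 in CD15M_CM. KYAT3, an aminotransferase gene and the next on the GBP1 side, had 89.4, 82.4 and 77.3. PKN2, a protein kinase gene that runs past the edge of the window, had 98.7, 85.6 and 81.9, from peaks at its end outside it. GTF2B, the gene of general transcription factor IIB, had 97.7, 84.4 and 98.7, and LRRC8B, a subunit gene of a volume-regulated anion channel, had 66.8, 85.7 and 96.4. H3K4me3 was thus higher in GD15M_CM than in CD15M_CM at LOC100155195 and KYAT3, on either side of the GBP genes, and at PKN2, and lower at LRRC8B.

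The remaining genes of the window have no name in the reference, so whether any of them belongs to the GBP family is not known here, and the 2 GBP genes are those with a GBP symbol. LOC100523310 had H3K4me3 percentiles of 80.1, 82.8 and 72.3, and LOC102161784 had 93.2, 98.4 and 97.9 at an end it shares with the lncRNA gene LOC106510239. LOC100523492 and LOC100523668 have lower-coordinate ends close together and so took the same peak, at H3K27ac percentiles of 94.3 in GD15M_CM, 17.7 in GD15M_LM and 45.2 in CD15M_CM. LOC106510236, a pseudogene, held 3 short H3K27ac sites and no H3K4me3 peak. GBP genes resemble one another in sequence, and reads from near-identical copies can be placed at the wrong one, so the assignment of signal within the cluster is uncertain to that degree.

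The pathway around the GBP genes was followed with a list of 42 interferon genes, of which 41 were placed and 36 had a peak in each comparison. Against CD15M_CM, 8 genes of the list were higher and 3 lower in GD15M_CM for H3K4me3 (median difference 4.20 points, all genes -2.10), and 14 higher and 4 lower for H3K27ac (6.84, all genes 0.19). Against GD15M_LM, 10 were higher and 6 lower for H3K4me3 (1.43, all genes 0.47), and 17 higher and 6 lower for H3K27ac (7.33, all genes 1.99). The shares of all genes are those given above for each comparison. The study named several of these genes from the same libraries.

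Of the 6 genes for receptor chains, kinases and STATs, 1 was higher and 2 were lower in GD15M_CM than in CD15M_CM for H3K4me3. Of all genes, 12.2% were higher and 23.4% lower. STAT2, a transcription factor of the response to type I interferon, had H3K4me3 percentiles of 72.4, 65.0 and 71.9 in GD15M_CM, GD15M_LM and CD15M_CM.

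The transcription factors and coactivators held many of the higher values. Of 7 such genes, 4 were higher and none lower in GD15M_CM than in CD15M_CM for H3K4me3, with a median difference of 16.1 points. Of all genes, 12.2% were higher and 23.4% lower. Against GD15M_LM, 6 were higher and none lower for H3K27ac, with a median of 37.3 (all genes 33.3% and 23.7%). The other results were weaker. For H3K4me3 against GD15M_LM, 3 were higher and none lower, with a median of 8.48 (all genes 20.7% and 19.4%). For H3K27ac against CD15M_CM, 4 were higher and 1 lower, with a median of 11.1 (all genes 27.5% and 27%). CIITA, the coactivator of MHC class II genes, had an H3K4me3 percentile of 49.7 in GD15M_CM, 3.42 in GD15M_LM and no peak in CD15M_CM. NLRC5, the coactivator of MHC class I genes, had 33 in GD15M_CM and no H3K4me3 peak in the other lists, and its H3K27ac percentile was 70.1 against 13.1 in GD15M_LM and none in CD15M_CM. IRF1 stayed high throughout, with H3K4me3 percentiles of 95.9, 96.1 and 88.9.

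Of 10 genes of class I antigen processing, 1 was higher and none lower for H3K4me3 against CD15M_CM (all genes 12.2% and 23.4%). Against GD15M_LM, 1 was higher and 4 were lower (all genes 20.7% and 19.4%). For H3K27ac, 3 were higher and 1 lower against CD15M_CM (all genes 27.5% and 27%). Against GD15M_LM, 4 were higher and 1 lower (all genes 33.3% and 23.7%). For H3K4me3 against GD15M_LM the share lower was thus above that of all genes and the share higher below it. In the other comparisons the shares higher were near those of all genes and the shares lower were below them. PSMB9, an immunoproteasome subunit, had H3K4me3 percentiles of 88.2 in GD15M_CM, 67.6 in GD15M_LM and 74.0 in CD15M_CM. TAP1, a peptide transporter chain whose gene lies next to PSMB9, had 88.2, 90.2 and 83.8. The value in GD15M_CM was that of PSMB9, and those in the other lists were the values of PSMB8 and TAP2. They therefore do not follow 1 peak across the tissues. PSMB8 and TAP2 had 85.5 in GD15M_CM. B2M, the light chain of MHC class I, had 81.4, 94.5 and 91.1.

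The effector genes were uneven. IDO1, CXCL9, CXCL11, GCH1 and NOS2 had no peak of either mark within 3 kb of a gene end in any list. CXCL10, a chemokine that draws T cells, had H3K4me3 percentiles of 62.6 in GD15M_CM, 60.9 in GD15M_LM and 9.69 in CD15M_CM. OAS1, an antiviral enzyme, had 86.2 in GD15M_CM and 89.7 in CD15M_CM and no peak in GD15M_LM, but the peak of GD15M_CM reached only 14 bases into the 3 kb window, against 590 in CD15M_CM. IFIT3, an antiviral protein, had H3K27ac percentiles of 99.9 in GD15M_CM, 10.3 in GD15M_LM and 96.3 in CD15M_CM, and ISG15, a ubiquitin-like modifier, 75.8, 68.4 and 16.3. USP18, which removes ISG15 and damps interferon signalling, had 92.4, 26.4 and 56.4.

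**Figure D5:**
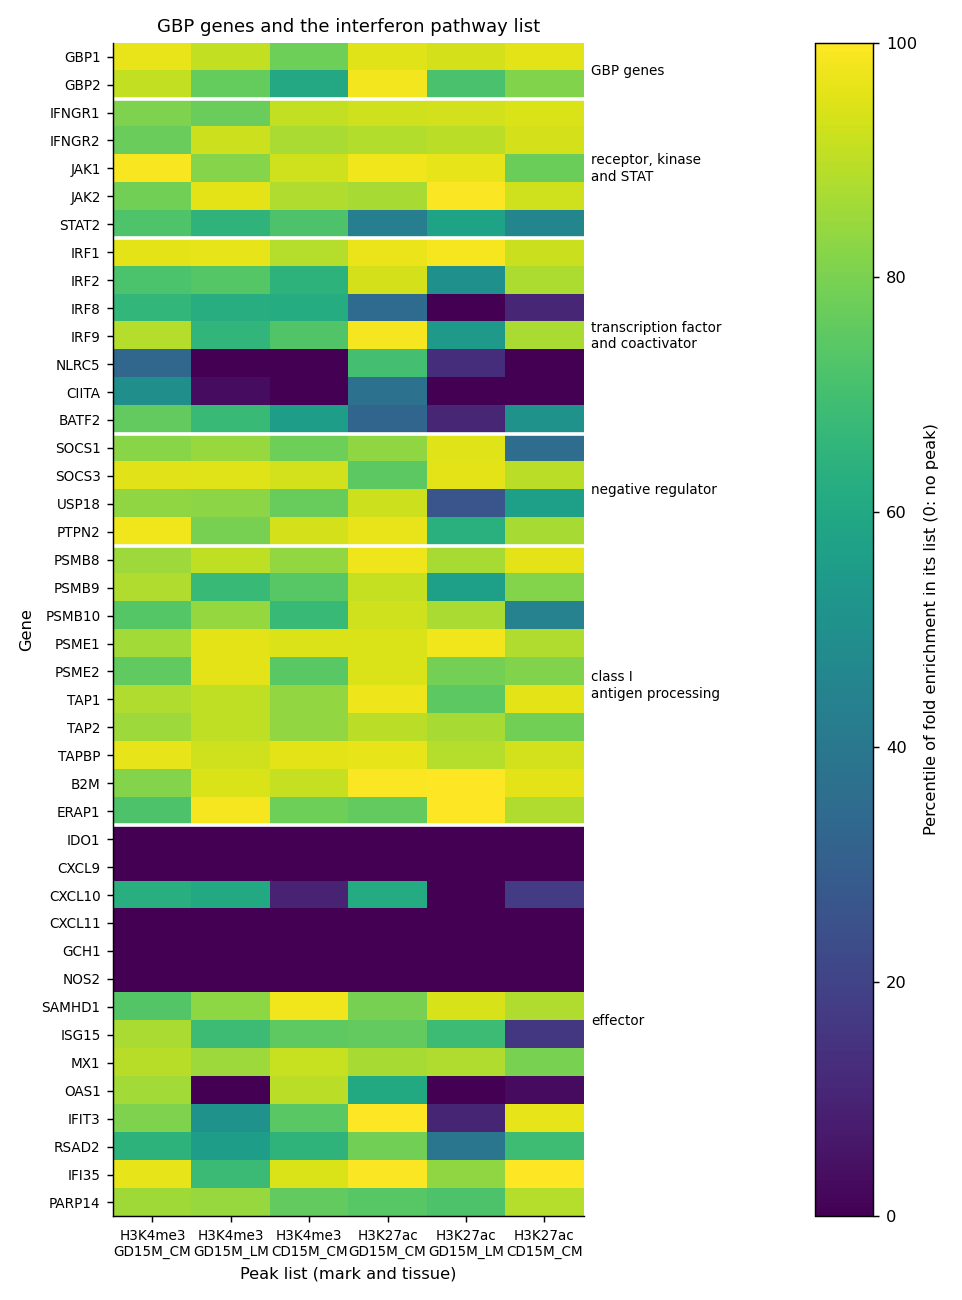
Percentile of fold enrichment (colour, 0 where there is no peak) of the GBP genes and placed genes of the interferon list (rows, grouped by role) in the 6 peak lists (columns). The GBP genes lie between percentiles 60.3 and 98.4 in every list, whereas CIITA and NLRC5 are low or without a peak outside GD15M_CM.

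Markers of cell types were compared in the same way, and the lists differed in direction. For H3K4me3, 4 of 8 placed T cell markers were higher and none lower in GD15M_CM than in CD15M_CM (median difference 12.3 points). Of all genes, 12.2% were higher and 23.4% lower. Against GD15M_LM, 2 of the 8 were higher, beside 20.7% of all genes. CD3D and CD3G adjoin and took the same H3K4me3 peak, so their rise against CD15M_CM is not 2 separate results. Their median percentile was 66.4 in GD15M_CM, with a range of 51.7 to 90.9. It was 58.5 in GD15M_LM, within 44.8 to 63.2, and 52.6 in CD15M_CM, within 0 to 73.2, where CD8A had no peak. For H3K27ac, 5 of the 8 had a peak in GD15M_CM and 1 in each other list, that of LCK. Of all 19550 genes, 13712 had an H3K27ac peak in GD15M_CM, beside 14064 for CD15M_CM and 13515 for GD15M_LM. The share of T cell markers with a peak was thus not above that of all genes in any list. Of the 5 markers with a peak, 5 were higher and none lower than in CD15M_CM (all genes 27.5% and 27%). Against GD15M_LM, 4 were higher and none lower (all genes 33.3% and 23.7%). CD3E and CD3D were among those with no H3K27ac peak in any list. The part of T cells in the GBP values was not tested, and more cells of a type cannot be told apart from more mark per cell in a whole tissue layer.

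Smooth muscle markers had peaks in all lists, at 9 of 10 genes. CALD1 had none within 3 kb of either end, and the inside of this long gene was not searched. Their median H3K4me3 percentile was 74.7 in GD15M_CM, 91.0 in GD15M_LM and 88.9 in CD15M_CM. Of the 9, 6 were lower in GD15M_CM than in CD15M_CM, beside 23.4% of all genes. Of 8 uterine epithelium markers, all 8 were higher in GD15M_CM than in GD15M_LM for H3K4me3, beside 20.7% of all genes. Their medians were 80.4 and 58.7, while CD15M_CM had 78.4. For H3K27ac, where GBP2 differed by 27.2 points, 7 of the 8 were higher and 1 lower than in GD15M_LM. The medians were 76.2 and 27.1, and of all genes 33.3% were higher and 23.7% lower. Against CD15M_CM, none was higher and 1 was lower in GD15M_CM for H3K4me3 (all genes 12.2% and 23.4%). For H3K27ac 3 were higher and 1 lower (all genes 27.5% and 27%). Macrophage markers had H3K4me3 medians of 56.6, 59.0 and 59.4 and endothelial markers 60.2, 62.2 and 65.9, in the order GD15M_CM, GD15M_LM and CD15M_CM. The part of these cell types in the GBP values was not tested.

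The genes outside the window whose 6 percentiles lay nearest to those of each GBP gene were taken by Euclidean distance. For GBP1 they were ELL, NEK11, ASTE1, RAP2C and SLC30A6, at distances from 5.01 to 5.12, beside a median of 67.9 over all genes. NEK11 and ASTE1 adjoin and took the same peaks, and so have the same values. For GBP2 they included SMYD4, RPA1, FTL and CREG1, at distances from 11.5 to 13.9 beside a median of 58.7, with SMYD4 and RPA1 again adjoining and at the same values. None of these is in the interferon list. GBP1 and GBP2 were 35.9 apart, under both medians. That this is farther than each was from the genes named says little, since those were picked as the nearest.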

How the data were processed

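The authors mapped CUT&Tag reads to Sus scrofa assembly 11.1 with BWA (0.7.17-r1188), removed duplicates and reads of mapping quality under 25 with SAMtools (1.9) and Picard (2.8.3), pooled the replicates of each mark and tissue, and called peaks with MACS2 (2.2.6) using 3 kb extension regions. Each deposited list gives per peak a fold enrichment, which is a ratio over local background, a −log10 p and a length in bases. A further deposited column of each list (6 in all), whose header is damaged, was not used. The lists state no read totals. The read numbers that the study lists per library were not used here, so no precision is given for single peaks.

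Peaks were ranked by fold enrichment within each list (Python 3.11.15, pandas 2.3.3, NumPy 2.4.6, SciPy 1.17.1), with starts counted from 1. Gene positions were those of RefSeq Sscrofa11.1. The planned window around the gene start needed a strand, which the reference used here does not give, so 3 kb around either gene end was used. Promoter motifs and proteins were not analysed here. Routines for overlap, merging and ranking were tested on simulated data. No statistical test was possible between single pooled lists.

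The members and gene lists were chosen with earlier results of these data known. The named genes were the GBP genes, every gene with a peak in the window, IRF1, STAT2, NLRC5, CIITA, PSMB9, TAP1 and B2M, the 3 interferon genes with the largest difference per comparison and mark, and the 5 nearest genes of each GBP gene; some of the genes the rule names are not reported here. The joined sites and the ratio of bases covered were chosen after seeing the data. Alternatives were ranking by −log10 p, other windows, a strict limit (fold enrichment from 5 and −log10 p from 10), peaks under 1 kb apart merged, equal numbers of peaks, 20 points, ratios of 1.5 and overlap of 50% of a peak.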

Additional observations from a re-analysis of the deposited data

How the results depend on the processing

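No paired analysis was possible because each list pools both gilts and carries no replicate number, and for the same reason no replicate could be left out. A window around the gene start only was not run, since no strand was at hand. At GBP1 and GBP2 the H3K4me3 difference between GD15M_CM and CD15M_CM and the H3K27ac difference at GBP2 in both comparisons kept their direction and stayed past 10 points under every ranking, window, threshold, merging and equal-number setting run. Ranking by −log10 p took the H3K4me3 difference at GBP2 from 30.4 to 12.6 points against CD15M_CM, and against GD15M_LM to 4.66 points, which left 0 GBP genes higher there. With the strict threshold the H3K4me3 differences against CD15M_CM were 41.8 (GBP1) and 67.6 points (GBP2). Those at GBP2 for H3K27ac were 86.8 in both comparisons, since GD15M_CM alone kept a peak there. The strict threshold put GBP1 at 11.1 points for H3K4me3 against GD15M_LM (2 GBP genes higher). The interferon genes higher in GD15M_CM were then 16 for H3K4me3 against CD15M_CM and 11 for H3K27ac against GD15M_LM. The kept peaks were ranked anew, and a gene without one counted as 0. These values are thus on another scale than the main ones, and no share of all genes is given beside them. With 20 points, 1 GBP gene was higher for H3K4me3 against CD15M_CM, 0 against GD15M_LM, and 0 for H3K27ac against CD15M_CM, and 3 interferon genes were higher for H3K4me3 against CD15M_CM. With a ratio of fold enrichments of 1.5, no GBP gene (0) was higher for H3K4me3 against GD15M_LM, and the interferon genes higher were 5 for H3K4me3 against CD15M_CM, 6 for H3K4me3 and 10 for H3K27ac against GD15M_LM. The counts at 20 points and at this ratio have no share of all genes beside them, so they cannot be set against a background. With the ratio of bases covered, chosen after seeing the data, 1 GBP gene was higher for H3K4me3 against CD15M_CM and 0 against GD15M_LM, where 3 interferon genes were. That ratio was reached at 2.53% of all genes against CD15M_CM and at 5.75% against GD15M_LM. The strict threshold left 14 H3K4me3 peaks in the window in GD15M_CM and, for H3K27ac, 10 peaks over 13276 bases in GD15M_CM, 5 over 5702 in GD15M_LM and 7 over 11804 in CD15M_CM, as a stricter limit keeps fewer peaks. Merging left 16 H3K4me3 and 27 H3K27ac peaks in GD15M_CM. For the other changes the cause was not tested. The smaller difference at GBP1 for H3K27ac was under 10 points in every setting, with either sign.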
